A study of Homo sapiens with 4 samples.

Results

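The genes described here encode the proteins of the cytosolic ribosome. They were the protein-coding genes whose symbol starts with RPL or RPS and a digit, with RPLP0, RPLP1, RPLP2, RPSA, and FAU added, and with RPS6 kinases, RPS19BP1, most paralogues whose symbol ends in L, and all pseudogenes left out. This gave 86 of the 58243 genes in the deposited tables, 51 for the large 60S subunit and 35 for the small 40S subunit. They were measured by mRNA sequencing in 293T cells, an embryonic kidney line, 48 h after transfection with a control RNA or with a mimic of miR-1, miR-122, or miR-124, as the labels give it (the study's methods name an earlier time). A mimic is a synthetic duplex that acts as the mature miRNA, and the cell line makes none of the miRNAs itself, as the study describes it. Each of the 4 conditions has 1 library, so no value has a replicate check, no p-value was calculated, and the 3 comparisons share the control RNA library.

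A ribosome holds 1 copy of most of its proteins, except for the stalk proteins, and their mRNAs are among the most abundant in growing cells. Most of these mRNAs begin with a terminal oligopyrimidine (TOP) tract, a run of C and U at the 5′ end that lets mTOR and LARP1 set their translation together. Introns are short in many of these genes, and reverse-transcribed copies have left more processed pseudogenes in the human genome than for almost any other family, so short reads can be placed on a pseudogene instead of the gene.

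Sequences show what the mimics read and what the mRNAs share. A miRNA finds targets mainly through its seed, bases 2 to 8, which pairs with a complementary word in the 3′ UTR. The mature sequences from RefSeq, with the seed in capitals, are those of miR-1, made from chr20:62554351-62554372 (+) in MIR1-1 and chr18:21829015-21829036 (-) in MIR1-2, and miR-122, made from chr18:58451088-58451109 (+) in MIR122 (GRCh38.p14). The matching words in DNA letters are ACATTCC and ACACTCC. The seed of miR-124 was not analysed here.
hsa-miR-1-3p: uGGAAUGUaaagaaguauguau
hsa-miR-122-5p: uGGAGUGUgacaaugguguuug

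Few ribosomal protein mRNAs hold either word. Taking each gene's longest 3′ UTR in GENCODE 44, the miR-1 word was in 4 of 78 members (5.13%) and in 12.6% of 6301 coding genes tested, and the miR-122 word was in 1 of 78 (1.28%) and in 8.94% of 6300. The median length of that UTR was 674.5 bases in members and 1452 in all coding genes tested, and 147 in the members' canonical transcripts. In the canonical transcripts, 3 members (RPL14, RPS28, and RPS3) held the miR-1 word and RPL28 alone held that of miR-122. RPL29 and RPS29 held the miR-1 word only in the longest 3′ UTR. The sites are printed with 11 bases on each side and the word in capitals, as GRCh38 positions. Shorter seed matches and the 3′ UTRs of other transcripts were not searched, so members not listed can still hold a site of another kind.
RPL14, chr3:40468331-40468359 (+): agtaaacaaagACATTCCtgcctggcagt
RPL29, chr3:51994721-51994749 (-): gcgtgcagggcACATTCCcacactgacca
RPS29, chr14:49573993-49574021 (-): tggagtgataaACATTCCtggcagcacag
RPS28, chr19:8323134-8323162 (+): tacaatgggttACATTCCggtgagtacat
RPS3 (canonical 3′ UTR), chr11:75406136-75406164 (+): cattagaatccACATTCCtaagttgtgtt
RPL28 (miR-122 word), chr19:55389313-55389341 (+): gccccaccactACACTCCagcctggaaga

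None of these members was lower with the mimic whose word it holds. With miR-1, however, 77 of all 78 members tested were above the control RNA library, so this does not set members with the word apart. Ratios of the mimic to the control RNA library, with 95% counting intervals in parentheses, were 1.08 (1.02 to 1.15) for RPL14, 1.05 (1.01 to 1.09) for RPL29, 1.16 (1.09 to 1.23) for RPS29, 1.101 (0.990 to 1.22) for RPS28, and 1.19 (1.17 to 1.21) for RPS3 with miR-1. The median ratio of all members tested with miR-1 was 1.14, with RPL14, RPL29, and RPS28 below it and RPS29 and RPS3 above it. With miR-122, RPL28 had a ratio of 1.07 (1.02 to 1.11). These intervals cover counting error only, and reads without molecular identifiers are not independent molecules.

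The 5′ ends carry the feature that the family is known for. In the RefSeq promoter table, 63 of the 78 members tested had a start site, and 47 of them (74.6%) had a run of at least 6 pyrimidines that began with a C within 5 bases of the start, on the transcribed strand. That run was found in 12.3% of 5195 coding genes tested and in 11% of all 27305 promoters. Windows of 15 bases on each side of the start (GRCh38.p14) are shown for some of the members named below, with the tract in capitals. Of those shown, only RPL26L1, a paralogue, had none. Others named below, among them RPL3, RPL9, RPL11, RPL13, RPL15, RPL17, RPL27, RPS26, RPS27A, and RPS29, had no such tract at these starts. Their windows are not shown. A start used here can lie inside the annotated gene, as for RPL3 and RPL27. A missing tract therefore does not show that the mRNA lacks one.
RPLP0, chr12:120201097-120201126 (-): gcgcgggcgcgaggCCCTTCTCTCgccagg
RPS6, chr9:19380222-19380251 (-): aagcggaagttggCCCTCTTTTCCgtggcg
RPS14, chr5:150449725-150449754 (-): ccgccccctcccaCTCTCTCTTTCCggtgt
RPS27, chr1:153990747-153990776 (+): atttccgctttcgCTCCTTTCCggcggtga
RPS21, chr20:62387088-62387117 (+): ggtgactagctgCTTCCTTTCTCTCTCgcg
RPL13A, chr19:49487593-49487622 (+): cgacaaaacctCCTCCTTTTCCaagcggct
RPL22, chr1:6199581-6199610 (-): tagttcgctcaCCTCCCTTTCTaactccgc
RPL22L1, chr3:170870181-170870210 (-): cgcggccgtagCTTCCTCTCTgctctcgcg
RPL26, chr17:8383179-8383208 (-): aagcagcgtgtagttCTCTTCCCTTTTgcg
RPL26L1, chr5:172958714-172958743 (+): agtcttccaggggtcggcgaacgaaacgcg

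Other words were counted in the 300-base promoters on either strand, in members, coding genes tested, and all promoters. GGAAG, the core of ETS factor sites, was in 92.1%, 77.4%, and 71.9%, and TATAA in 19%, 10.4%, and 21.1%. On the other strand GGAAG reads CTTCC, which lies within tracts such as those of RPS21 and RPL22L1 above. How many GGAAG matches lay in a tract was not counted. The word CTTTCC, which can also overlap the tract, was in 44.4%, 26.6%, and 26.3%. A longer palindromic word centred on CGCG was in 3 members (4.76%), 1.12% of coding genes tested, and 0.469% of all promoters. A match describes letters only.

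The deposited unit is FPKM, and the reads behind the values were recovered, since each value is a whole number of reads divided by a length and a library total. The libraries held 6661936 (control RNA), 9504453 (miR-1), 5922922 (miR-122), and 6504343 (miR-124) recovered reads; the miR-1 library was the deepest. For 69 of the 78 members tested, the length that made the reads whole was within 10% of the annotated span. For the other 9 (FAU, RPL9, RPL13, RPL13A, RPL22, RPL23A, RPLP2, RPS26, and RPSA) the reads could be off by a whole factor. That would widen or narrow their intervals and change their reads per kb of transcript and their pseudogene percents. Ratios with pseudogenes added and values summed over the family would change as well, but the ratios of these genes alone stay as they are. The level of RPS26 and the pseudogene percent of RPL22 given below have this limit. The markers of the family were high in all 4 libraries. RPLP0 (ENSG00000089157), the stalk base, had FPKM values of 269, 282, 291, and 277 in the order control RNA, miR-1, miR-122, and miR-124, which is used throughout. RPS6 (ENSG00000137154), the substrate of S6 kinases, had 224, 276, 249.7, and 247, and RPL3 (ENSG00000100316), a protein near the peptidyl transferase center, had 257, 280.5, 269.5, and 278. Of embryonic kidney genes, LHX1 was at 1.23, 0.865, 0.977, and 0.988 FPKM, whereas PAX2 and EYA1 stayed under 0.1 in every library. PTPRC, ALB, MYH7, ACTC1, and GFAP, defining genes of other cell types, were under 1 FPKM, and COL1A1 was between 2.98 and 3.61.

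Ribosomal protein genes took a large part of all reads, and most in the miR-1 library. They held 7.06% of the recovered reads with control RNA (95% binomial interval, 7.04 to 7.08), 8.09% (8.08 to 8.11) in the miR-1 library, 7.17% (7.15 to 7.19) in that of miR-122, and 7.34% (7.32 to 7.36) in that of miR-124. Recovered reads came to 100.57%, 100.55%, 100.61%, and 100.60% of the library totals behind the FPKM, an excess that these intervals do not cover. As shares of summed FPKM they were 7.36%, 7.98%, 7.18%, and 7.39%, with miR-122 then under the control. In bulk samples, fewer cells and less RNA per cell cannot be told apart.

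Levels can be compared between genes only per length, and the deposited FPKM divide by the gene with its introns, so reads were divided by the canonical transcript instead. On this scale, reads per kb of transcript in a library scaled to 1000000 reads, the 78 members had a median of 898 in the control RNA library, and the 90th percentile was 34.9-fold above the 10th. RPL27, RPL35, and RPL7A, all in the large subunit, were the highest with control RNA, at 3450.2, 4308, 3438, and 3647 for RPL27, 3166, 3876, 3177, and 3485 for RPL35, and 2983, 3253, 3105, and 3053 for RPL7A. The lowest with control RNA were RPL36A with 8.93, 6.95, 7.37, and 7.52, RPS26 with 12.1, 14.5, 13.4, and 9.63, and RPL22L1 with 14.4, 25.9, 17.4, and 16.8. RPL36A had nearly all of its reads on pseudogenes, and RPL22L1 is a paralogue of another member. In deposited FPKM, RPS2 led with 994, 1111, 1073, and 1057.

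**Figure D1:**
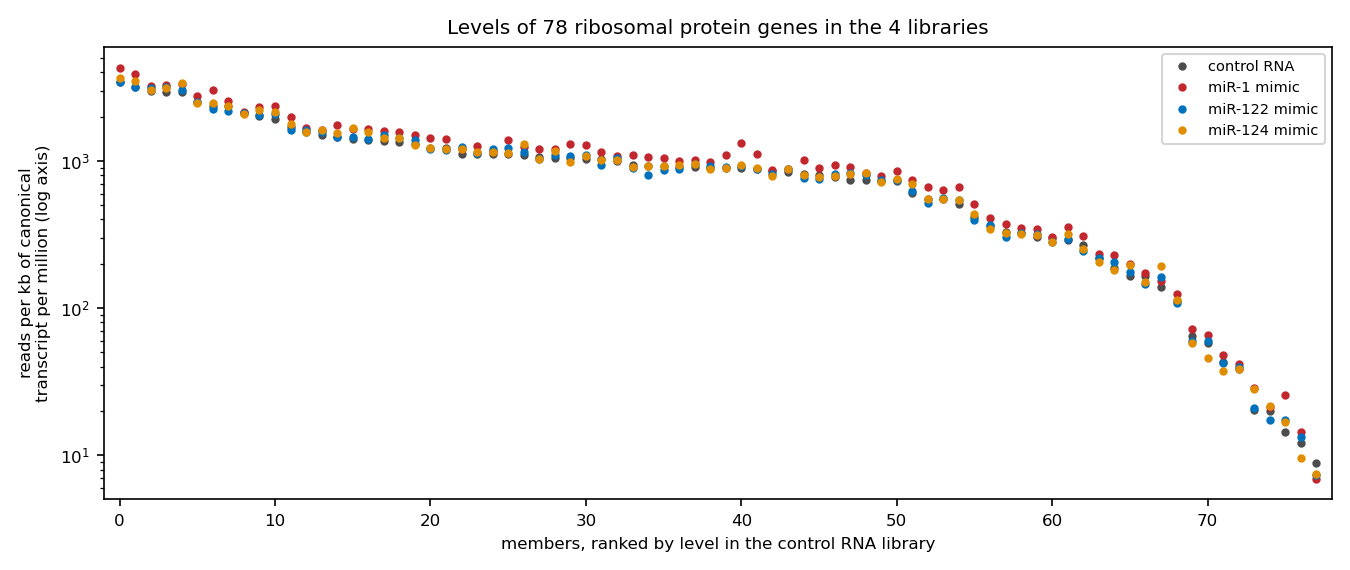
Levels of the 78 members with a mean FPKM of at least 1, in reads per kb of canonical transcript, scaled to 1000000 reads, on a log axis, 1 point for each of the 4 libraries, with members ranked by the control RNA library along the horizontal axis. The 4 points of a gene lie close together next to the range from 3450 for RPL27 to 8.93 for RPL36A. The miR-1 point is the highest for 69 of 78, a count not made for genes outside the family.

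Pseudogenes held part of the reads of most members. The annotation lists 1595 pseudogenes named after a member, of which 510 had a read in some library, and 72 of the 81 members with reads in the control RNA library had such a pseudogene. Reads on them came to 1.32%, 1.46%, 1.33%, and 1.34% of all reads in the 4 libraries. For 52 members, pseudogenes held under 5% of the reads of gene and pseudogenes together, but for 11 they held over 50%. Among those were RPL17 (99.1%), RPL36A (99.0%), RPL39 (94.5%), RPS28 (89.1%), RPL21 (83.7%), and RPL7 (81.4%) in the control RNA library. RPL39P3 had 6151, 9877, 5718, and 5555 reads, while RPL39 itself, which lines the exit tunnel, had 361, 564, 375, and 488. RPS28P7 had 4692, 8139, 4274, and 4639 reads beside 573, 900, 467, and 501 for RPS28. For these members the gene's own value covers a small part of the reads on gene and pseudogenes together, and which of those reads came from the gene was not tested.

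**Figure D2:**
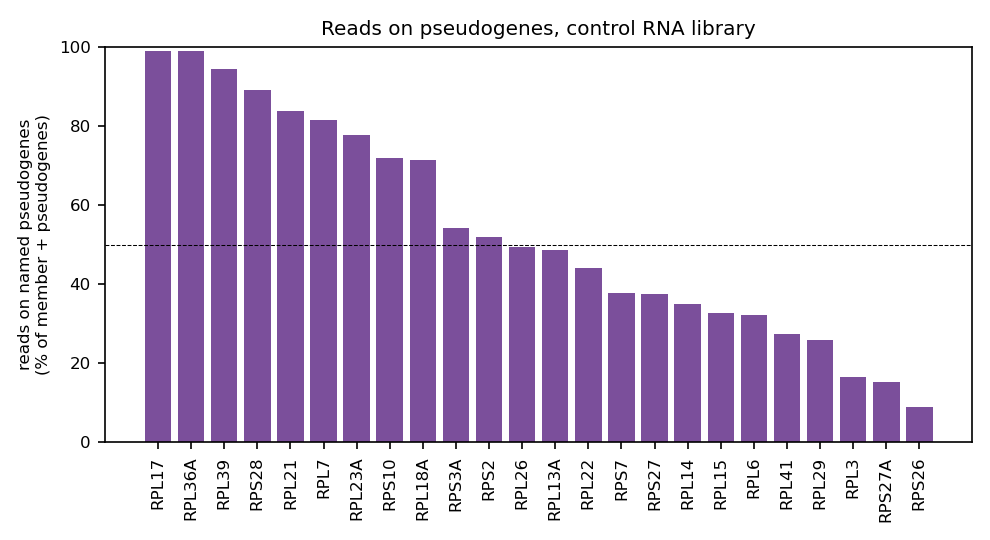
Percent of reads on named pseudogenes, out of the reads on a member and its pseudogenes together, in the control RNA library, for the 24 members with the highest percent. Bars start at 0 and the dashed line is at 50%, which 11 members pass.

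The other 8 of the 86 members had a mean under 1 FPKM and were left out by this minimum, which acts on values divided by lengths with introns. RPS10, RPL17, and RPL36A share their span with the readthrough genes RPS10-NUDT3, RPL17-C18orf32, and RPL36A-HNRNPH2, to 100%, 99.3%, and 96.5%, and these 3 readthrough genes were listed at 0 in all 4 libraries. RPS10, at the mRNA entry side of the small subunit, had only 11, 12, 10, and 10 reads, and RPL17, at the tunnel exit, had 17, 15, 17, and 10. RPL39L, a paralogue known from testis, had 205, 349, 222, and 217 reads, and RPS4Y1 and RPS4Y2 complete the 8. RPL36A, with 45, 50, 33, and 37 reads, was above the minimum. Which reads were left out where genes overlap is not given in the sources used here.

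With miR-1, the family was higher than in the control RNA library nearly as a whole. Of 78 members, 77 had a ratio above 1 (51.4% of all 9004 genes tested), and their median on the log2 scale was 0.19, or 1.14-fold, where that of all genes tested was 0.01. Both subunits shared it, with medians of 0.20 over 31 members of the 40S and 0.19 over 47 of the 60S. The interquartile range of the log2 ratio was 0.15 in members and 0.39 in all genes tested, so members lay closer together than all genes. Most of those genes have fewer reads, and the spread of genes outside the family with at least 1000 reads was not calculated. A difference was counted where a gene was at least 25% higher or at least 20% lower than in the control RNA library, and 7 members were higher by this rule (12.5% of all genes tested) and 1 lower (16.3%). The counting interval lay above 1 for 67 members (19.7% of the 8916 genes with recovered reads), below 1 for none (17.5%), and spanned 1 for 11. Summed over the members, reads relative to library size were 1.146-fold the control (1.142 to 1.150).

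Members have more reads than most genes, which narrows their intervals. Of 1141 genes outside the family with at least 1000 reads in the control RNA library, 41.5% had an interval above 1 with miR-1 and 30.3% below 1, and their median log2 ratio was 0.05. Of the 68 members with that many reads, 64 had an interval above 1 and none below. By the rule of size, 5 of the 68 were higher (4.65% of the 1141) and none lower (8.68%). With miR-122, 22 of the 68 had an interval above 1 (31.6% of the 1141) and 15 below (23.4%), and none was 25% higher (2.89%) or 20% lower (4.29%). With miR-124, 27 of the 68 had an interval above 1 (35.5%) and 7 below (29.4%), and none was 25% higher (8.33%) or 20% lower (5.35%). Genes outside the family with a mean of at least 50 FPKM (n = 355) had a median log2 ratio of 0.13 with miR-1, and 70.4% of them were above 1. With miR-122 their median was 0.08 (67.9% above 1), and with miR-124 it was 0.11 (69.0%).

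With miR-122 and miR-124, the median of the family was near that of all genes tested, and below that of the genes outside it with a mean of at least 50 FPKM. With miR-122, 46 of 78 members had a ratio above 1 (54.8% of 8968 genes tested), the median log2 ratio was 0.03 in members and in all genes, and no member was 25% higher (13.4% of all genes tested) or 20% lower (11.3%). Intervals lay above 1 for 23 members (16.8%) and below 1 for 15 (12%). With miR-124, 49 of 78 were above 1 (54.2% of 8980), the median log2 ratio was 0.03 in members and 0.04 in all genes tested, 2 were at least 25% higher (16.8%), and 2 at least 20% lower (12.8%). Intervals lay above 1 for 30 (21.3%) and below 1 for 8 (14.7%). Relative to the median of all genes tested, the members' median log2 ratio was -0.0031 with miR-122 and -0.0086 with miR-124. Reads summed over members were, relative to library size, 1.016-fold the control (1.012 to 1.020) with miR-122 and 1.040-fold (1.036 to 1.044) with miR-124.

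**Figure D3:**
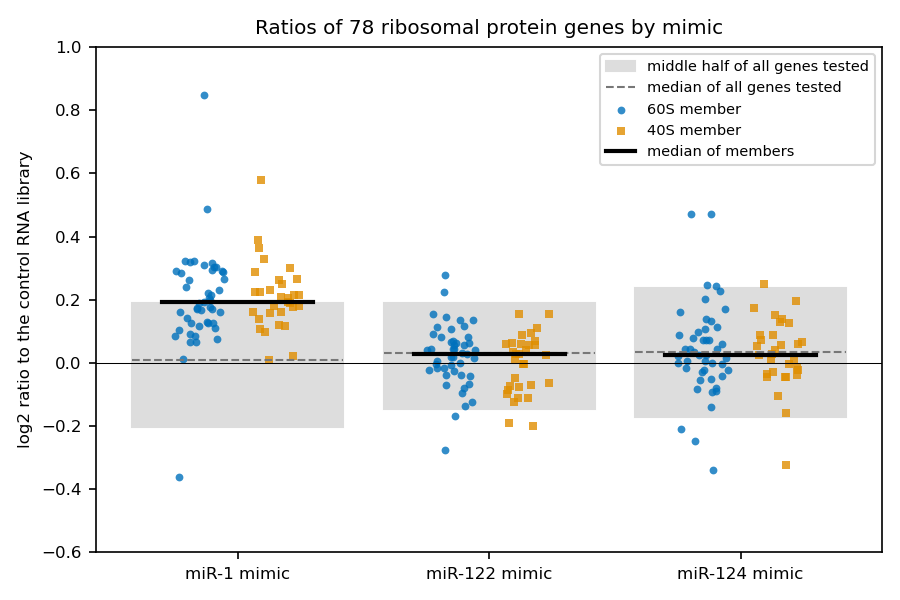
Log2 ratio of each of the 78 members to the control RNA library for the 3 mimics, circles for the 60S and squares for the 40S subunit, with the median of members (black line), and the median (dashed) and interquartile range (grey) of all genes tested. Members lie in a narrow band whose median is 0.19 with miR-1 and 0.03 with each of miR-122 and miR-124.

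In 69 of 78 members the miR-1 library held the highest of the 4 values. The same count was not made over genes outside the family, so it is not shown to be particular to these members. Because the 3 comparisons use the same control RNA library, a deviation of that library would enter all of them, and values for single members are given side by side. RPS29 and RPL11 are examples. RPS29, a zinc finger protein of the small subunit, had 9.65, 11.2, 8.46, and 9.63 FPKM and ratios of 1.16 (1.09 to 1.23), 0.877 (0.817 to 0.941), and 0.998 (0.934 to 1.07), whereas the ratios of RPL11 were 1.08 (1.05 to 1.11), 1.11 (1.08 to 1.15), and 1.08 (1.04 to 1.11).

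Among the 3 markers of the family, RPS6 had the highest ratio with miR-1. Its ratios with the 3 mimics were 1.23 (1.19 to 1.27), 1.11 (1.08 to 1.15), and 1.102 (1.07 to 1.14), against 1.05 (1.02 to 1.08), 1.08 (1.05 to 1.12), and 1.03 (0.9997 to 1.06) for RPLP0. RPL3 had 1.09 (1.07 to 1.12), 1.05 (1.02 to 1.08), and 1.08 (1.06 to 1.11). RPL15, of the large subunit, was among the members nearest to no difference with miR-1, at 90.4, 91.1, 84.6, and 85.0 FPKM and a ratio of 1.01 (0.970 to 1.05). With its pseudogenes, which held 32.7% of the reads in the control RNA library, the ratio was 0.950 (0.919 to 0.981).

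The stalk, which recruits translation factors, is built from RPLP0 and pairs of RPLP1 and RPLP2. RPLP2 had 192, 225, 203, and 204 FPKM, and its ratio with miR-1 was 1.17 (1.13 to 1.22). RPLP1 had 311, 339, 317, and 305, with a ratio of 1.09 (1.06 to 1.12). All 3 stalk genes were above the control with miR-1 and miR-122, and none was 25% higher or 20% lower with any mimic.

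RPL5 and RPL11 bind 5S rRNA and, when free of ribosomes, MDM2, the ligase of p53. RPL5 had 127, 148, 125, and 128 FPKM and RPL11 had 246, 265, 273, and 264. With miR-1 the ratios were 1.16 (1.13 to 1.19) for RPL5 and 1.08 (1.05 to 1.11) for RPL11. With miR-122 the order was the other way around, 0.981 (0.951 to 1.01) for RPL5 and 1.11 (1.08 to 1.15) for RPL11, with intervals that did not overlap.

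Of 9 members known as Diamond-Blackfan anaemia genes, 8 were tested, all 8 were above the control with miR-1, and the median log2 ratios with the 3 mimics were 0.20, 0.02, and -0.0033. RPS19, the gene most often mutated in that disease, had 141, 158, 147, and 148 FPKM and ratios of 1.12 (1.09 to 1.14), 1.04 (1.01 to 1.07), and 1.05 (1.02 to 1.07). RPL35A had ratios of 1.15 (1.11 to 1.18), 0.946 (0.915 to 0.979), and 1.01 (0.978 to 1.04), RPS24 had 1.15 (1.11 to 1.20), 1.06 (1.02 to 1.11), and 0.976 (0.937 to 1.02), and RPS7 had 1.12 (1.07 to 1.17), 0.942 (0.899 to 0.988), and 0.970 (0.926 to 1.01). All 3 were thus above the control with miR-1 and nearer to it with miR-124. RPS26, at the mRNA exit side, had only 91, 156, 90, and 71 reads, and its ratio of 0.799 (0.578 to 1.102) with miR-124 was at least 20% lower, with an interval that spans 1.

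The members made as fusions to a ubiquitin-like part had unlike ratios. RPS27A, cut from a fusion with ubiquitin, had 169, 172, 162, and 157 FPKM and ratios of 1.01 (0.977 to 1.05), 0.957 (0.916 to 0.9995), and 0.930 (0.891 to 0.971). FAU, the source of eS30, had 80.2, 97.9, 80.9, and 87.7 FPKM and ratios of 1.22 (1.13 to 1.32), 1.01 (0.920 to 1.11), and 1.09 (1.0014 to 1.19). With miR-1, the interval of FAU lay wholly above that of RPS27A.

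The members highest with miR-1 were RPL22L1, RPS27, and RPL26. RPL22L1 (ENSG00000163584, GRCh38 chr3:170864875-170870208, minus strand), the paralogue of RPL22, had 4.87, 8.77, 5.91, and 5.71 FPKM from 181, 465, 195, and 207 reads. Its ratio with miR-1 was 1.800 (1.51 to 2.15), the only one above 1.5-fold in the family, and no pseudogene reads were assigned to it. RPL22, the partner that competes for the same place on the ribosome, had 16.3, 18.3, 15.8, and 16.6 FPKM and a ratio of 1.13 (1.06 to 1.20), so that the intervals of the pair did not overlap. With its pseudogenes, which held 44.2% of the reads, the ratio of RPL22 was 1.097 (1.04 to 1.15). With miR-122 and miR-124, the ratios of RPL22L1 were 1.21 (0.985 to 1.49) and 1.17 (0.955 to 1.44), also the highest of the members tested with miR-122.

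RPS27 (ENSG00000177954, GRCh38 chr1:153990762-153992155, plus strand), a zinc finger protein of the small subunit, had 226, 337, 235, and 237 FPKM. Its ratio with miR-1 was 1.49 (1.42 to 1.57), and with the reads of its pseudogenes added it was 1.38 (1.33 to 1.44). The other 3 libraries lay between 226 and 237 FPKM, all below the miR-1 library. RPS14, RPS21, and RPL38 were also at least 25% higher with miR-1. RPS14, of the platform of the small subunit, had 166, 218, 177, and 177 FPKM and 1.31 (1.27 to 1.35), and RPS21 had 603, 776, 574, and 628 FPKM and 1.29 (1.24 to 1.33). RPL38, a small protein known for its part in the translation of Hox mRNAs, had 143, 179, 142, and 146 FPKM and 1.252 (1.21 to 1.29).

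RPL26, which binds near the tunnel exit, and its paralogue RPL26L1 had ratios on opposite sides of 1 with miR-124. RPL26 had 1.88, 2.64, 1.94, and 2.61 FPKM from 71, 142, 65, and 96 reads, and its ratio was 1.40 (1.05 to 1.89) with miR-1 and 1.39 (1.01 to 1.91) with miR-124. RPL26L1 had 3.77, 4.26, 3.92, and 2.98 FPKM from 276, 445, 255, and 213 reads, and its ratio with miR-124 was 0.791 (0.658 to 0.949), the lowest of the members tested, with an interval below 1 that did not overlap that of RPL26. About as many reads lay on pseudogenes of RPL26 as on the gene, and with them the ratios were 1.20 (0.971 to 1.49) with miR-1 and 1.13 (0.891 to 1.43) with miR-124, both with intervals that span 1.

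RPL39 gave the other high ratio with miR-124, 1.39 (1.21 to 1.59). Counting its pseudogenes, the ratio was 0.951 (0.918 to 0.985), on the other side of 1. RPL36A, which lies beside the tRNA exit site, was the lowest member tested with miR-1, at 0.779 (0.510 to 1.19), and with miR-122, at 0.825 (0.510 to 1.32), and had 0.842 (0.530 to 1.33) with miR-124. All its intervals span 1, and with pseudogene reads the ratio with miR-1 was 1.04 (1.0026 to 1.08). Its intronless paralogue RPL36AL, which the rule does not take, had 46.6, 61.2, 56.4, and 58.4 FPKM and a ratio with miR-1 of 1.31 (1.19 to 1.45). The other low members with miR-122 were RPS15A with 0.870 (0.728 to 1.04) and RPS29, given above. RPL39 with 1.17 (1.01 to 1.35) and RPS26 with 1.11 (0.822 to 1.51) followed RPL22L1 among the highest with miR-122. With miR-124, RPS9 and RPL13A followed the highest, at 20.8, 24.2, 21.6, and 24.7 FPKM and 1.19 (1.15 to 1.23) for RPS9, and 261, 294, 273, and 310.0 FPKM and 1.19 (1.15 to 1.22) for RPL13A, a protein best known for its role in the GAIT complex.

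**Figure D4:**
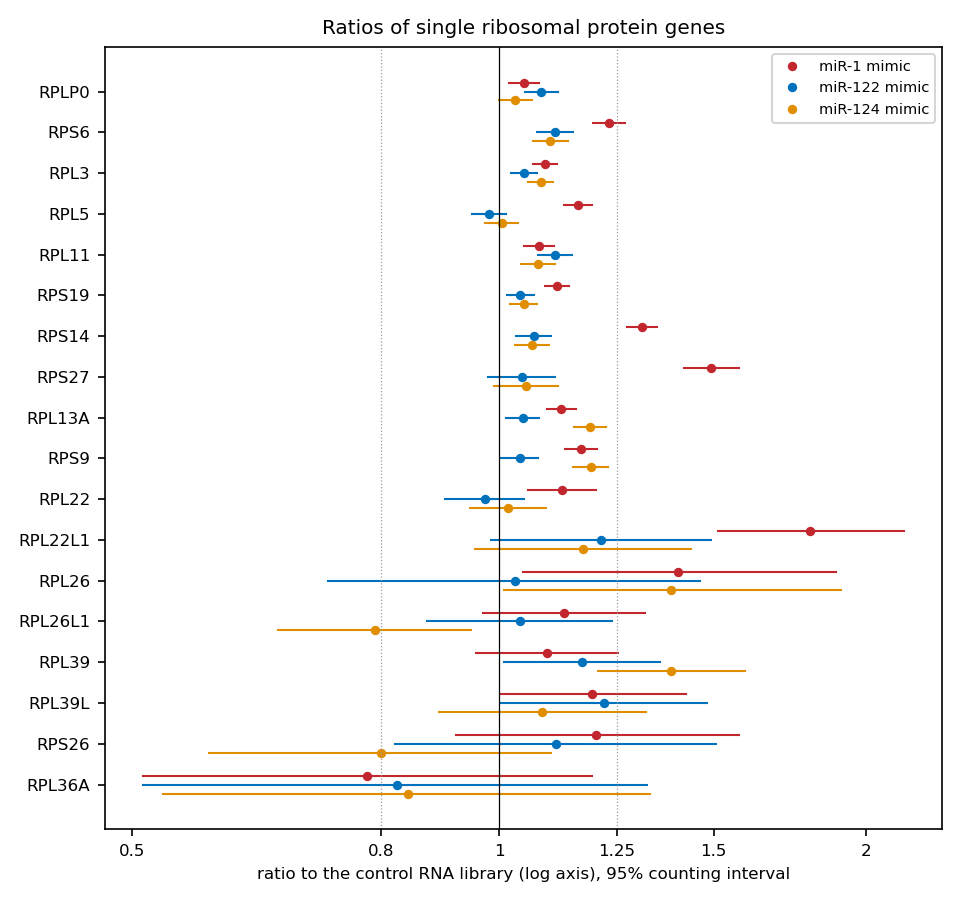
Ratio to the control RNA library (log axis) of members named in the text for the 3 mimics, with 95% counting intervals as bars; dotted lines mark 25% higher and 20% lower. RPS27 and RPL22L1 lie far to the right with miR-1, at 1.49 and 1.80, whereas RPL26L1 lies left of 0.8 with miR-124; RPL39L has a mean under 1 FPKM and was not counted among the members tested.

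Within the family, the ratio with miR-1 ran against coding length, and that with miR-124 ran with GC content. Over 78 members, Spearman's rho of the miR-1 ratio with coding length was -0.33, and -0.41 over the 68 members with at least 1000 reads, as a description, since all points share the same pair of libraries. Over 6321 coding genes it was -0.25. The 26 members with the shortest coding sequences (75 to 396 bases) had a median log2 ratio of 0.23, and the 26 with the longest (576 to 1281 bases) had 0.16. RPL41, whose coding sequence of 75 bases is the shortest, had 523, 651, 539, and 491 FPKM and a ratio of 1.24 (1.20 to 1.29).

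For miR-124, rho with coding GC content was 0.30 over 78 members, 0.50 over the 68 with at least 1000 reads, and 0.65 over 6320 coding genes. The 26 members richest in GC (54.2 to 63.0%) had a median log2 ratio of 0.09 with 22 above 1, and the 26 poorest (40.4 to 47.9%) had 0.01 with 14 above 1. The 26 between them had 0.0033 with 13 above 1, so the difference lay at the GC-rich end. With miR-122, rho with GC content was 0.20 over members and 0.34 over 6319 coding genes. With coding length, rho over members was 0.19 with miR-122 and 0.20 with miR-124, of opposite sign to that with miR-1. Canonical 3′ UTR length gave -0.15, -0.02, and -0.17 with the 3 mimics over members, and -0.33, -0.30, and -0.38 over all coding genes tested. Recovered reads gave -0.11, 0.18, and 0.33 over the 68 members. The part of base composition or length in the ratios of single members was not tested.

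**Figure D5:**
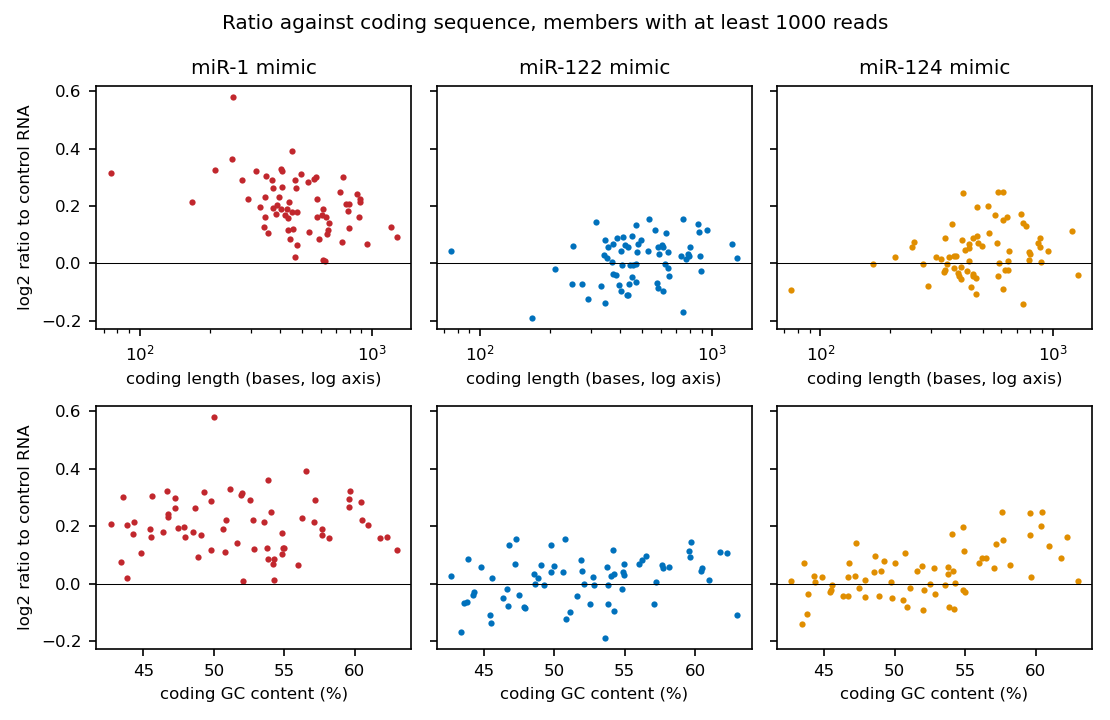
Log2 ratio to the control RNA library of the 68 members with at least 1000 reads, against coding length in bases (log axis, top row) and coding GC content in percent (bottom row), 1 column for each mimic. With miR-1 the points fall toward long coding sequences (rho -0.41), and with miR-124 they lie higher at high GC content (rho 0.50).

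Genes that work with these proteins did not all have the same ratios. Of 14 translation factors and other genes with TOP mRNAs, 13 were tested, and none was 25% higher or 20% lower with miR-1; their median log2 ratio was 0.08, with 8 of 13 above 1, against 0.19 in the ribosomal proteins. EEF1A1, which brings tRNAs to the ribosome, had 332, 343, 337, and 303 FPKM and a ratio of 1.03 (1.01 to 1.05) with miR-1. PABPC1, the poly(A) binding protein, was the lowest of the list with each mimic, at 0.812 (0.772 to 0.854) with miR-1. EIF3F was the highest, at 1.21 with miR-1 and 1.32 with miR-122, and EEF2, the translocation factor, was the highest with miR-124, at 1.21. The list's medians with miR-122 and miR-124 were 0.02 and -0.06.

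Of 51 genes for rRNA processing and ribosome assembly, 44 were tested. With miR-1 their median log2 ratio was 0.19, with 11 at least 25% higher (12.5% of all genes tested) and none at least 20% lower (16.3%). With miR-122 the median was 0.00, with 1 higher (13.4%) and 1 lower (11.3%), and with miR-124 it was -0.03, with none higher (16.8%) and 5 lower (12.8%). RRP9, a U3 snoRNP protein, had 4.01, 6.71, 4.47, and 4.89 FPKM, a ratio of 1.67 (1.43 to 1.96) with miR-1, and NOC3L was the lowest, at 0.853. DDX21, a nucleolar helicase, was the lowest with miR-122, at 0.767 (0.715 to 0.822), and HEATR1 with miR-124, at 0.673. NOLC1 at 1.28 and BOP1 at 1.246 were the highest of the list with miR-122 and miR-124.

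Of 7 chaperones of single ribosomal proteins, 5 were tested, with medians of 0.19, 0.00, and 0.03. TSR2, which carries RPS26, was the highest with miR-1, at 1.40 (1.26 to 1.54) from 605 and 1205 reads, and with miR-122, at 1.101, and PDCD2, which carries RPS2, was the lowest with each mimic, at 0.904, 0.874, and 0.910. GRWD1, a chaperone of RPL3, was the highest with miR-124, at 1.09. Of 8 ribosome parts and paralogues that the rule does not take, 5 were tested, and all 5 were above the control with miR-1, with RPL36AL the highest. RACK1, a scaffold on the small subunit, had a ratio of 1.13 (1.099 to 1.16), and RPL7L1 was the lowest, at 1.01. RPS27L, the paralogue of RPS27, had a ratio of 1.07 (0.944 to 1.21) with miR-1, under the interval of RPS27, and was the lowest of these with miR-122 (0.908) and miR-124 (0.846).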

How the data were processed

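mRNA from 293T cells in 4 conditions, with 1 library each, was sequenced by the authors. The submitters' processing notes name CASAVA 1.8, HISAT2 2.0.0, and GRCh38, while the counting program and annotation are not given in the sources used here. The unit deposited by the authors is FPKM, given per gene and library. In each library, the value of a short gene times its length most often equals that of 1 read, which gives the library's divisor. A gene's length was its span in GENCODE 44 (end minus start) where that made the reads of all 4 libraries whole. Otherwise it was the smallest length that did, near the span or not. For genes with at least 200 reads over the 4 libraries, a small whole multiple of that length was taken instead if it lay within 10% of the span. The annotated length gave whole reads for 57.2% of 32010 genes and some length for 99.7% (tolerance, 0.001 read). On simulated libraries, each mimic against control RNA, all 4 divisors came back, and of 2047 genes over a minimum of 200 reads, 89.35% came back exactly.

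Ratios were taken from FPKM without a pseudocount, for genes above 0.004 in both libraries and with a mean of at least 1 over the 4 libraries. Intervals were exact Clopper-Pearson (95%) from the recovered reads. A gene was counted if at least 25% higher or 20% lower. Genes named were RPLP0, RPS6, RPL3, the 3 highest and lowest members for each mimic and by level, the role lists, members under the minimum, and the highest and lowest gene of each other list. Some genes that this rule names are not reported here. Members and lists were chosen with earlier results of these data known. Genes with a seed word or a start-site tract, the other members counted as higher, some examples in each list, and the backgrounds of genes with at least 1000 reads or a mean of 50 FPKM were added after values were seen. Alternatives were a pseudocount of 1 or 0.1, a reference made of the other 2 mimic libraries, centring, minimum means of 0 and 10, no paralogues, 1.5-fold, and, chosen after seeing the data, adding pseudogene reads, members with at least 1000 reads, and canonical 3′ UTRs. Scripts ran in Python 3.11.15 with matplotlib 3.10.9, pandas 2.3.3, scipy 1.17.1, and numpy 2.4.6.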

Additional observations from a re-analysis of the deposited data

How the results depend on the processing

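No paired analysis was possible because there is a single library per condition, and for the same reason no library could be left out of a group. Of 98 alternative values for 16 results, 68 stayed within the limits set and 30 did not. With pseudogene reads added, 2 members counted as different changed side, RPL39 with miR-124 (1.39 to 0.951) and RPL36A with miR-1 (0.779 to 1.04). The median log2 ratio with miR-1 was between 0.18 and 0.20 under every alternative. Against the average of the other 2 mimics, median log2 ratios were -0.12 with miR-122 and -0.07 with miR-124, so the small positive medians of these mimics depend on the reference. Of the 7 members at least 25% higher with miR-1, 1 was left at 1.5-fold. The count of 1 at least 20% lower with miR-1 became 3 with no minimum mean, and 0 with a pseudocount of 1, the other reference, a minimum mean of 10, pseudogene reads added, at least 1000 reads, or 1.5-fold. With miR-122, 1 member was lower against the other reference. With miR-124, the 2 lower members became 0 with a pseudocount of 1, a minimum mean of 10, at least 1000 reads, or 1.5-fold, and 1 with a pseudocount of 0.1, without paralogues, or with pseudogene reads, and 3 with the other reference or no minimum mean. The 2 higher became 0 with the other reference, pseudogene reads, at least 1000 reads, or 1.5-fold, and 1 with a minimum mean of 10. Stricter minimums leave fewer genes, and other causes were not tested. Shares of summed FPKM were 7.36% with control RNA, 7.98% with miR-1, and 7.39% with miR-124, and shares of reads with pseudogenes added were 8.38%, 9.55%, 8.50% (miR-122), and 8.68%. Levels spread 40.2-fold in deposited FPKM in place of 34.9-fold. The difference between culture dishes, which 1 library per condition cannot show, limits every ratio near 1.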

Other observations

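Mitochondrial ribosomal proteins, which are made in the cytosol and form the separate ribosome of mitochondria, were also higher with miR-1. Of 79 such genes, 67 were tested, 60 had a ratio above 1, 11 were at least 25% higher (12.5% of all genes tested), and 1 (MRPL19, at 0.796) was at least 20% lower (16.3%); the median log2 ratio was 0.20. With miR-122 the median was 0.09, with 4 higher (13.4%) and 4 lower (11.3%), and with miR-124 it was 0.05, with 5 higher (16.8%) and 2 lower (12.8%). MRPL12, which also binds the mitochondrial RNA polymerase, had 6.19, 10.05, 8.56, and 6.72 FPKM in the order of libraries used above, and its ratio was 1.62 (1.35 to 1.95) with miR-1. MRPS36 was the lowest with miR-122, at 0.691 (0.535 to 0.890), and with miR-124, at 0.741, and MRPS17 was the highest with miR-124, at 1.48. Spearman's rho of the miR-124 ratio with coding GC content was 0.47 over these 67 genes, which share the same pair of libraries.

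Medians of genes that act upstream of ribosome production were nearer to that of all genes than to that of the ribosomal proteins with miR-1, and below both with the other mimics. Of 14 RNA polymerase I genes, 11 were tested, with median log2 ratios of 0.03, -0.02, and -0.07 with the 3 mimics, none 25% higher or 20% lower with the first and second mimic, and 2 lower with miR-124 (12.8% of all genes tested). POLR1G was the highest with miR-1, at 1.13, and POLR1B the lowest, at 0.834. POLR1H (1.06) and POLR1C (0.895) were the extremes with miR-122, and TAF1C (1.22) and TAF1D (0.785) with miR-124. Of 24 regulators of ribosomal protein mRNAs and of ribosome surveillance, 16 were tested, with medians of -0.01, -0.03, and -0.06. RPS6KB1, a kinase of RPS6, was the lowest with miR-1, at 1.21 and 0.929 FPKM in the control RNA and miR-1 libraries and a ratio of 0.769 (0.677 to 0.875), and EIF4EBP1 was the highest, at 1.16. RPS6KB2 (1.28) and LARP4 (0.804) were the extremes with miR-122. ZNF598, which marks collided ribosomes, was the highest with miR-124, at 1.37, and TIA1 the lowest, at 0.755.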
